A study of Mus musculus with 3 samples.

Results

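Fibroblast growth factors (FGFs) and their receptors were described across the cell types of the postnatal mouse lung. The 9 genes, chosen by symbol, were the 5 ligands *Fgf1*, *Fgf2*, *Fgf7*, *Fgf10*, and *Fgf18* and the 4 receptors *Fgfr1*, *Fgfr2*, *Fgfr3*, and *Fgfr4*, of 28692 genes counted. The data were single-cell RNA-Seq libraries of whole lung from 3 wild-type C57BL/6 mice (mice 2, 3, and 4) kept in room air from day 1 to day 14 of life and taken at P14. No other genotype, treatment, or age was analyzed, so every comparison was between cell types of the same 3 lungs. Each library held freshly dissociated cells of 1 mouse.

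FGFs are secreted proteins that bind receptor tyrosine kinases together with heparan sulfate chains on the cell surface. The receptors signal through the adaptor FRS2 and the RAS-MAPK cascade to ETS transcription factors, and Sprouty, Spred, and DUSP proteins act as feedback inhibitors. In the lung, FGF10 from the mesenchyme drives branching through the epithelial isoform of FGFR2, FGF7 acts on the same isoform, FGF18 has been tied to alveolar formation, and mice that lack both *Fgfr3* and *Fgfr4* fail to form alveoli.

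Values are unique molecular identifiers (UMIs), which count captured transcripts from their 3′ end, summed over the cells of a type in each mouse and given as CPM, the UMIs of a gene scaled to the same total in every sum. Levels were compared between cell types and not between genes, and the counts do not tell receptor isoforms apart. Of 9644 deposited cells, 7642 were kept, with 2386 to 2655 cells and 20804836 to 23442355 UMIs per mouse. They fell into 1266 epithelial, 1537 stromal, 956 endothelial cell (EC), and 3018 immune cells, and 865 cells stayed unnamed. Types were named only by likeness to marker lists, from clusters made without the FGF genes, and 18 of them had at least 10 cells in every mouse. Every order of types given here is among these 18, and smaller groups, such as 19 chondrocyte-like and 23 lymphatic EC-like cells, stand outside it. The libraries shared 5, 2, and 5 cell barcodes in their pairs. The kept cells held 8152 UMIs of *Fgfr2*, 4195 of *Fgfr1*, 3817 of *Fgf1*, 2942 of *Fgfr3*, 1514 of *Fgf18*, 1094 of *Fgf7*, 735 of *Fgf2*, 416 of *Fgfr4*, and 355 of *Fgf10*.

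B cell-like cells, which served as the background, held few of these transcripts. Of 1689 such cells, with a median of 3873 UMIs, 7 held a UMI of *Fgf1* (0.414%), 16 one of *Fgfr2* (0.947%), and 4 one of *Fgfr3* (0.237%). *Fgf2*, *Fgf7*, *Fgfr1*, and *Fgfr4* were found in 1 or 2 of these cells each. No B cell-like cell held *Fgf10* or *Fgf18*, which allows a share of up to 0.178% (3 counts of the total). Such limits, and the exact binomial 95% intervals given with other shares, cover counting error only.

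The question of the first comparison was which class of cells makes each ligand and which carries each receptor. Of the UMIs of a gene in each mouse, the stromal class held 95.5% ± 1.4 for *Fgf7* (SD, n = 3 mice), 95.2% ± 1.3 for *Fgf10*, 93.6% ± 2.7 for *Fgf2*, and 86.0% ± 4.0 for *Fgf18*. The epithelial class held 81.6% ± 6.0 of the *Fgf1* UMIs. Among receptors, the stromal class held 93.3% ± 4.3 of *Fgfr4* and 81.2% ± 1.8 of *Fgfr1*, and the epithelial class held 90.2% ± 0.9 of *Fgfr2*. *Fgfr3* was spread over 3 classes, with 35.6% ± 4.9 in epithelial, 32.9% ± 6.8 in stromal, and 28.8% ± 3.0 in endothelial cells. These shares also move with the number and depth of the cells of each class. CPM is scaled to the total of its class, but it still moves with the mix of cell types inside the class.

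**Figure D1:**
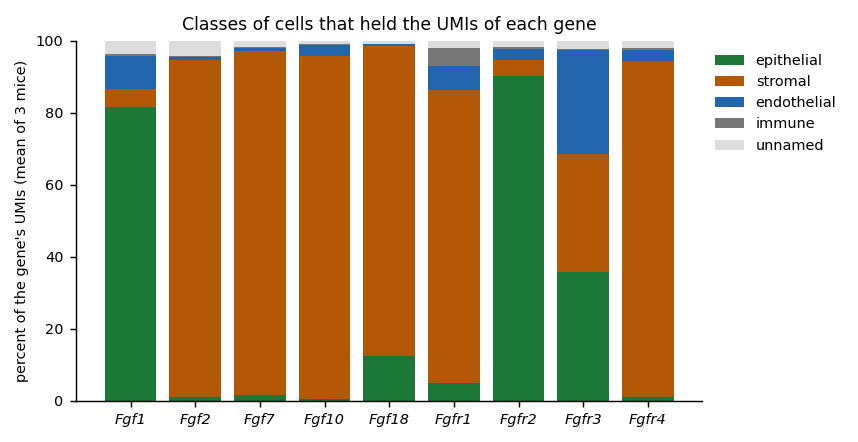
Share of each gene's UMIs by cell class (percent of the UMIs in kept cells, with bars for the mean of 3 mice). *Fgf2*, *Fgf7*, *Fgf10*, *Fgf18*, *Fgfr1*, and *Fgfr4* lay mostly in stromal cells, *Fgf1* and *Fgfr2* mostly in epithelial cells, and *Fgfr3* in 3 classes.

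Between stromal and epithelial cells, 6 of the 9 genes were higher in stromal cells and 2 were lower (edgeR's quasi-likelihood test, Benjamini-Hochberg adjusted p under 0.05 over 14212 genes). Most genes differed between these classes, with 35.9% of all genes tested higher and 31.3% lower, so a call alone says little and the sizes matter. Scaled by library totals alone, without the trimmed mean of M values (TMM), 53.1% were higher and 21.1% lower, since that scaling moved the median of all genes by 0.37 on the log2 scale. *Fgf7* was at 59.6 ± 0.9 CPM in stromal and 0.793 ± 0.312 CPM in epithelial cells, a log2 difference of 5.89 ± 0.21 (SE, adjusted p = 1.97e-12 by edgeR). The SE of each edgeR log2 difference was its size divided by the square root of the F statistic of the test. For a group with few UMIs it can understate the counting error. *Fgf2* was at 39.5 ± 3.7 CPM against 0.291 ± 0.357 CPM (log2 difference 6.53 ± 0.39, adjusted p = 9.60e-10 by edgeR). *Fgf10* was at 19.4 ± 1.6 CPM in stromal cells and had 2 UMIs in all epithelial cells, a ratio of 217 with a counting interval of 59.7 to 1803. In the other direction, *Fgf1* was at 139 ± 12.2 CPM in epithelial and 10.6 ± 2.7 CPM in stromal cells (log2 difference -4.10 ± 0.18, adjusted p = 1.97e-11 by edgeR).

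Among receptors in the same comparison, *Fgfr1* was at 196 ± 22.9 CPM in stromal against 9.48 ± 1.00 CPM in epithelial cells (log2 difference 4.00 ± 0.14, adjusted p = 2.03e-12 by edgeR), and *Fgfr2* at 21.0 ± 2.3 against 331 ± 29.0 CPM (log2 difference -4.34 ± 0.09, adjusted p = 2.95e-14 by edgeR). *Fgfr4* was at 22.6 ± 7.7 CPM in stromal cells and had 4 UMIs in all epithelial cells. *Fgfr3* did not pass the test, at 55.5 ± 13.7 CPM in stromal and 47.1 ± 2.5 CPM in epithelial cells, and its fitted difference was -0.14 ± 0.13 on the log2 scale. That sign was positive without TMM (0.24) and without mouse 2 (0.01), and without mouse 3 the difference passed the test at -0.33 (edgeR, adjusted p = 0.0380). Of the 961 stromal *Fgfr3* UMIs, 718 lay in Col13a1-type fibroblasts, described further on. These were 42, 66, and 57 of the 542, 416, and 579 stromal cells in mice 2, 3, and 4. Whether this mix set the sign was not tested.

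All 9 genes were higher in stromal than in immune cells, beside 38.9% of all genes tested (37.4% were lower). Epithelial cells were higher than immune cells in 5 genes (*Fgf1*, *Fgf7*, *Fgf18*, *Fgfr2*, and *Fgfr3*) and lower in 0, beside 37.8% and 37.5% of all genes. The *Fgf7* call was lost in 3 of 14 other settings, among them narrowly without mouse 4 (edgeR, adjusted p = 0.0509) and more clearly in another. ECs were higher than immune cells in 6 genes (*Fgf1*, *Fgf7*, *Fgf10*, *Fgfr1*, *Fgfr2*, and *Fgfr3*) and lower in 0, beside 34.1% and 35.3% (41.1% and 27% without TMM). Of these, *Fgf7* and *Fgf10* had only 11 UMIs each in all ECs. Here too the *Fgf7* call was lost in 4 of 14 other settings, among them without mouse 4 (edgeR, adjusted p = 0.161), and the *Fgfr1* call in 1, the stricter cell filter of 500 genes and 10% mitochondrial UMIs (edgeR, adjusted p = 0.0734). Against ECs, stromal cells were higher in 6 genes and lower in *Fgf1* and *Fgfr3* (31.2% and 24.6% of all genes). The *Fgfr3* level was 88.6 ± 4.7 CPM in ECs, where the 3 mice (83.4 to 92.5 CPM) lay above the 3 stromal values (42.6 to 70.0 CPM). The log2 difference of stromal against endothelial cells was -0.57 ± 0.13 (edgeR, adjusted p = 0.00193). ECs also held *Fgf1* at 36.7 ± 9.7 CPM, between epithelial and stromal cells, and *Fgfr2* at 26.5 ± 1.4 CPM, where the difference from stromal cells did not pass the test (log2 difference -0.23, adjusted p = 0.0954 by edgeR).

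*Fgf1*, which can bind all 4 receptors and is secreted without a signal peptide, is a gene of chromosome 18 (GRCm38, GENCODE M21, 38838673 to 38929472, minus strand). It was highest in cells like alveolar type 1 (AT1) cells, at 387, 329, and 338 CPM in mice 2, 3, and 4. The next types were Car4-type capillary ECs at 84.4, 162, and 128 CPM, cells like alveolar type 2 (AT2) cells at 95.6, 119, and 116 CPM, and club-like cells at 88.7 ± 8.1 CPM. The AT1-like values did not overlap with any other type, whereas the Car4-type and AT2-like values overlapped. AT1-like cells were higher than AT2-like cells by 1.41 ± 0.15 on the log2 scale (edgeR, adjusted p = 3.18e-11), as 1 of 3 genes called higher there, beside 19.4% of all 11744 genes tested (29.5% without TMM). A UMI of *Fgf1* was found in 140 of 176 AT1-like cells and in 774 of 1028 AT2-like cells. After each cell was thinned to 1000 UMIs, leaving out 32 and 2 shallower cells, the shares were 34.6% and 10.2%.

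Within the endothelium, Car4-type capillary ECs, also known as aerocytes, had more *Fgf1* than Aplnr-type capillary ECs, which were at 21.9, 30.4, and 38.8 CPM. The mice of the 2 types did not overlap, and the log2 difference was 1.96 ± 0.24 (edgeR, adjusted p = 1.45e-08). It was 1 of 3 members higher in this comparison, in which only 4.53% of all genes were higher and 5.8% lower (6.1% and 5.2% by DESeq2). Against the mean of the other ECs, *Fgf1* was lower in arterial (log2 difference -2.17 ± 0.48, adjusted p = 5.53e-04 by edgeR) and in venous EC-like cells (-1.54 ± 0.48, adjusted p = 0.0212 by edgeR), which held 7.34 ± 6.92 and 10.2 ± 9.9 CPM. The arterial call was lost without mouse 4 (-1.13, adjusted p = 0.257 by edgeR). The venous call was lost in 5 of 14 other settings, among them without mouse 2 and without mouse 3.

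*Fgf2*, a heparin-binding ligand with no signal peptide, lies on chromosome 3 (37348346 to 37410108, plus strand). It was highest in fibroblast-like cells named from *Col13a1*, *Npnt*, and *Tcf21* among their markers (Col13a1-type fibroblasts), at 86.3, 65.0, and 62.4 CPM. Those named from *Col14a1*, *Pi16*, and *Dcn* among their markers (Col14a1-type fibroblasts) followed at 57.0, 53.8, and 45.3 CPM, then myofibroblast-like cells at 35.1 ± 0.7 and smooth muscle-like cells at 29.8 ± 7.1 CPM. The first 2 types did not overlap with each other or with the rest, although the ratio of their pooled levels, 1.32, had a counting interval of 0.977 to 1.81, and the last 2 overlapped. The few chondrocyte-like cells, outside the order, held *Fgf2* at 244, 106, and 114 CPM (37 UMIs). Pericyte-like cells had 5 UMIs in all, and *Fgf2* was lower there than in the mean of the other stromal types (log2 difference -2.89 ± 0.51, adjusted p = 2.02e-05 by edgeR). The gene overlaps *Nudt6* on the opposite strand, which had 487 UMIs, and whether the counting used strand is not given in the sources used here.

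*Fgf7*, or keratinocyte growth factor, lies on chromosome 2 (126034658 to 126091185, plus strand). Col13a1-type fibroblasts (87.9, 93.8, and 83.2 CPM) and myofibroblast-like cells (91.4, 86.3, and 77.2 CPM) overlapped at the top. Col14a1-type fibroblasts were at 41.0 ± 16.3 CPM and smooth muscle-like cells at 23.1 ± 3.7 CPM. A small sub-cluster of the smooth muscle-like cells, described further on, lay far above their value. Pericyte-like cells had 1 UMI, so that the ratio of Col13a1-type fibroblasts to them was 68.8 with a wide counting interval of 12.2 to 2732. *Fgf7* was called higher in both leading types against the mean of the other stromal types (edgeR, adjusted p = 2.75e-09 and 3.14e-09).

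*Fgf10*, the branching ligand, lies on chromosome 13 (118669791 to 118792115, plus strand). It was concentrated in Col13a1-type fibroblasts, at 89.6, 90.6, and 96.5 CPM, and 106 of 165 of these cells held a UMI (64.2%, exact binomial interval 56.4% to 71.5%, and 9.12% after thinning to 1000 UMIs). Col14a1-type fibroblasts followed at 23.8, 21.1, and 31.4 CPM and myofibroblast-like cells at 16.2, 6.64, and 10.7 CPM. These 3 types did not overlap. AT2-like cells had 0 UMIs, which makes Col13a1-type fibroblasts at least 512-fold higher with a floor of 3 counts over the 3 mice, and pericyte-like cells also had 0 (at least 23.8-fold). The difference from the other stromal types passed the test (edgeR, adjusted p = 2.28e-12).

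*Fgf18* lies on chromosome 11 (33117430 to 33147400, minus strand). Its level was highest in myofibroblast-like cells, named from *Aspn*, *Hhip*, and *Pdgfra* among their markers, at 130.01, 148, and 154 CPM. AT1-like cells followed at 71.0, 50.5, and 54.3 CPM and smooth muscle-like cells at 9.90, 17.5, and 6.37 CPM, with no overlap among the 3. A UMI was found in 493 of 767 myofibroblast-like cells (64.3%, interval 60.8% to 67.7%) and in 78 of 176 AT1-like cells (44.3%, 36.8% to 52.0%), against 9 of 1028 AT2-like cells. Thinned to 1000 UMIs, the shares were 12.8%, 5.62%, and 0.0615%. AT1-like cells were higher than AT2-like cells by 5.90 ± 0.39 on the log2 scale (edgeR, adjusted p = 1.60e-15). The ratio of myofibroblast-like to AT2-like cells was 200.4 (counting interval 114 to 389), and to AT1-like cells 2.44 (2.09 to 2.87). Without the AT1-like cells that held AT2 markers, described further on, AT1-like cells were at 97.2, 81.0, and 107 CPM. These were nearer to the values of the pooled myofibroblast-like type but still below them. The myofibroblast-like sub-cluster led by *Pdgfra* and *Stc1*, described further on, overlapped with the AT1-like values, with or without these cells.

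**Figure D2:**
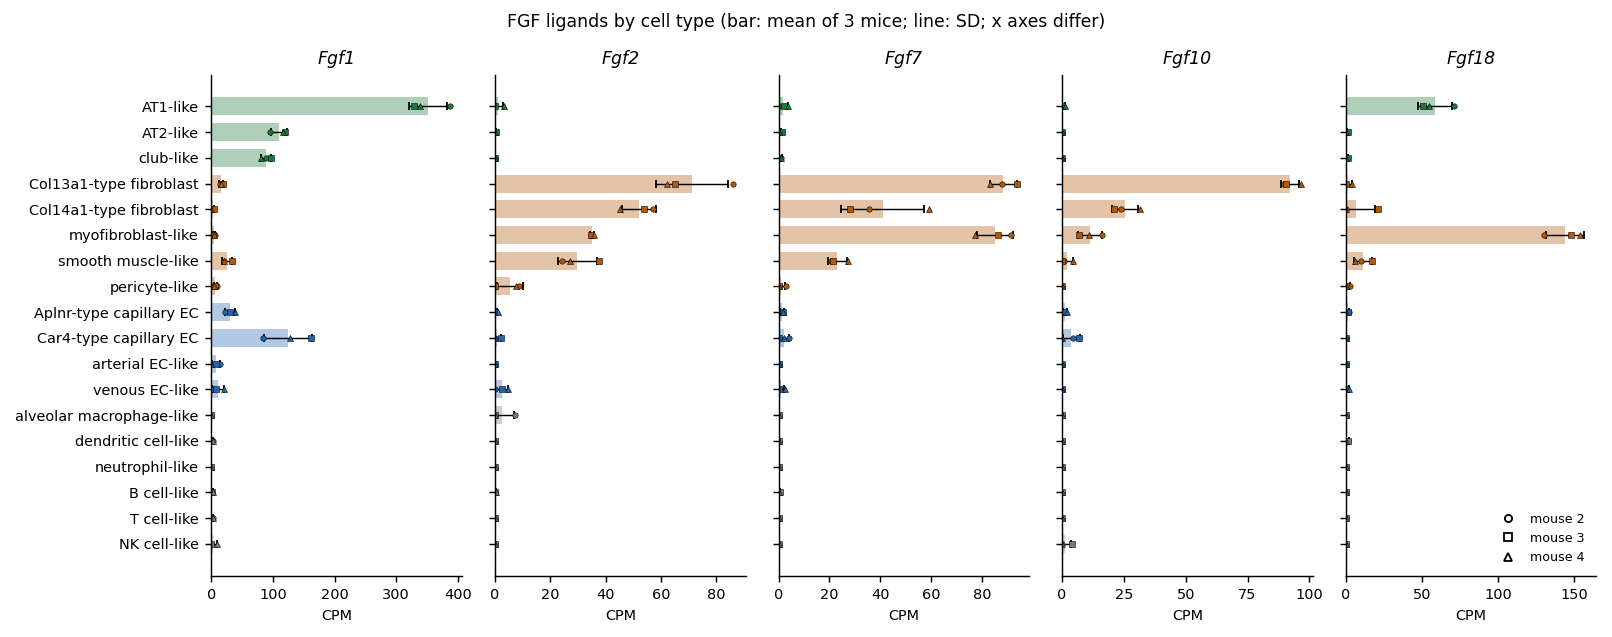
Levels of the 5 ligands by cell type (CPM of UMIs summed per mouse and type; bars, mean of 3 mice; lines, SD; points, mice; x axes differ between genes). *Fgf1* peaked in AT1-like cells, *Fgf2* and *Fgf10* in Col13a1-type fibroblasts, *Fgf7* in Col13a1-type fibroblasts and myofibroblast-like cells, and *Fgf18* in myofibroblast-like cells, followed by AT1-like cells.

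The myofibroblast-like cells were 3 sub-clusters, which were set side by side without a test because their genes had defined them. In the 190 cells led by *Aspn* and *Hhip*, *Fgf18* was at 223, 222, and 228 CPM. It was at 119, 173, and 175 CPM in the 333 cells led by *Tnc* and *Wnt5a*, and at 58.3, 88.0, and 90.7 CPM in the 244 cells led by *Pdgfra* and *Stc1*. The *Fgf18* level of the whole type is therefore not general to its cells. Within each mouse the order of the 3 sub-clusters was the same. *Fgf7* followed it with 113 ± 9.9, 88.2 ± 8.7, and 64.1 ± 7.1 CPM, whereas *Fgfr1* was near 200 CPM in each (211 ± 33.7, 195 ± 16.1, and 184 ± 16.6 CPM). *Fgf7* and *Fgf18* were found together in 273 of 767 myofibroblast-like cells (35.7% ± 1.0 per mouse). A small smooth muscle-like sub-cluster of 36 cells, led by *Actc1*, *Cnn1*, and *Hhip*, held *Fgf7* at 99.2, 156, and 202 CPM and *Fgfr2* at 90.2, 109.9, and 126 CPM. All 202 smooth muscle-like cells, which include this sub-cluster, were at 23.1 ± 3.7 and 32.1 ± 4.7 CPM. The values of the whole type are therefore not general to its cells.

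**Figure D3:**
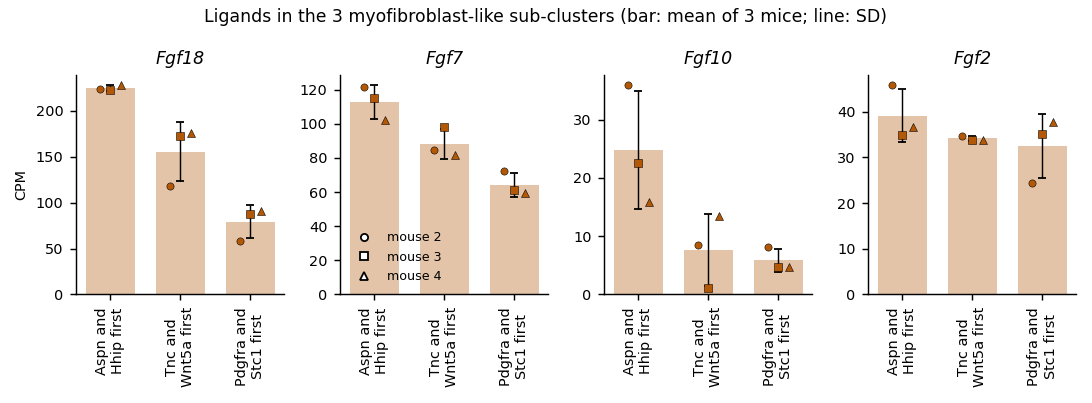
FGF levels in the sub-clusters of the myofibroblast-like cells (CPM, with bars for the mean of 3 mice, lines for the SD, and points for mice). *Fgf18* and *Fgf7* were highest in the *Aspn*- and *Hhip*-led myofibroblast-like cells and lowest in the *Pdgfra*- and *Stc1*-led ones.

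*Fgfr1*, a receptor found widely in mesenchyme, lies on chromosome 8 (25513654 to 25575718, plus strand). Col14a1-type (264, 329.8, and 303 CPM) and Col13a1-type fibroblasts (274, 297, and 281 CPM) overlapped at the top. Myofibroblast-like cells followed at 195 ± 8.5 CPM and smooth muscle-like cells at 152 ± 7.5 CPM, each below the type before it in every mouse. The few chondrocyte-like cells, outside the order, varied from 48.9 and 229 CPM in mice 2 and 4 to 655 CPM in mouse 3. Pericyte-like cells stood apart, with 9 UMIs in all and 5.74, 0, and 26.6 CPM (log2 difference from the mean of the other stromal types -4.38 ± 0.33, adjusted p = 6.20e-16 by edgeR). On so few UMIs, this SE can understate the counting error. Pericyte-like cells were lower in 5 genes (*Fgf2*, *Fgf7*, *Fgf10*, *Fgfr1*, and *Fgfr3*), beside 12.4% of all genes tested. In *Fgfr3* they held 2 UMIs (3.01 CPM), not below smooth muscle-like (2.44 CPM) or myofibroblast-like cells (1.25 CPM). That call is against a mean that includes Col13a1-type fibroblasts at 327 CPM. The *Fgf10* call was lost in 2 of 14 other settings. Without mouse 4 it lay near the threshold (edgeR, adjusted p = 0.0582), and in the other setting far from it. The *Fgfr3* call was lost without mouse 2 or mouse 4 (edgeR, adjusted p = 0.0899 and 0.124).

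Outside the stroma, *Fgfr1* was found in dendritic cell-like cells at 97.5, 114, and 108 CPM, and in 81 of 204 of them (39.7%, interval 32.9% to 46.8%, and 8.99% after thinning to 1000 UMIs). The 2 dendritic sub-clusters had 104 ± 6.5 and 113 ± 17.6 CPM. No other immune type with at least 10 cells per mouse reached the dendritic level in any mouse. The 23 lymphatic EC-like cells were uneven, with 44.3, 0, and 207 CPM (7, 0, and 30 UMIs). Car4-type capillary ECs had 59.1, 60.03, and 49.0 CPM against 11.5, 16.5, and 14.0 CPM in Aplnr-type capillary ECs, with no overlap (log2 difference 1.98 ± 0.30, adjusted p = 1.95e-06 by edgeR).

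*Fgfr2*, the receptor of FGF7 and FGF10 in epithelium, lies on chromosome 7 (minus strand). GENCODE M21 gives it an unusually long record (130162451 to 133123350) that spans many other genes, so its span is uncertain. AT2-like cells had 376, 436, and 395 CPM, AT1-like cells 136, 149.5, and 141 CPM, and club-like cells 93.3, 59.6, and 83.7 CPM, with no overlap between these 3 types. These values changed when cells that held AT2 markers, described further on, were left out of both types. Without them, AT1-like cells were at 57.0, 75.6, and 69.0 CPM and club-like cells at 48.8, 55.5, and 67.7 CPM, and the types overlapped. AT1-like cells were lower than AT2-like cells by a log2 difference of -1.78 ± 0.14 (edgeR, adjusted p = 2.08e-15), the only one of the 9 genes called lower there, beside 17.7% of all genes (9.72% without TMM), and the difference was -3.14 without the AT1-like cells that held AT2 markers. It was found in 987 of 1028 AT2-like cells (96.0%, interval 94.6% to 97.1%, and 32.4% after thinning to 1000 UMIs), and 754 of them also held *Fgf1*. Car4-type (33.6 ± 2.0 CPM), Aplnr-type (33.1 ± 2.1 CPM), and smooth muscle-like cells (32.1 ± 4.7 CPM) overlapped.

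*Fgfr3*, on chromosome 5 (33721674 to 33737068, plus strand), was highest among the 18 types in Col13a1-type fibroblasts at 315, 299, and 367 CPM. The few chondrocyte-like cells, outside the order, were at 489, 327, and 1144 CPM. Arterial EC-like cells followed at 198, 174, and 190.1 CPM, above venous EC-like cells at 129, 131, and 113 CPM, which overlapped with Car4-type capillary ECs at 129, 106, and 98.0 CPM. Aplnr-type capillary ECs were at 47.9 ± 5.6 CPM. Each step from Col13a1-type fibroblasts to arterial and to venous cells was without overlap. Against the mean of the other ECs, arterial cells were higher (log2 difference 1.12 ± 0.14, adjusted p = 1.50e-08 by edgeR) and Aplnr-type cells lower (-1.50 ± 0.14, adjusted p = 4.35e-11 by edgeR). In these 2 comparisons 8.97% of all genes were higher (7.31% lower in arterial cells) and 3.87% lower, respectively. *Fgfr3* was also higher in Car4-type than in Aplnr-type capillary ECs by 1.15 ± 0.19 on the log2 scale (edgeR, adjusted p = 1.64e-05). Myofibroblast-like cells held 10 UMIs in 767 cells, a ratio of 273 (147 to 571) to Col13a1-type fibroblasts.

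*Fgfr4*, on chromosome 13 (55152640 to 55168759, plus strand), was highest in Col13a1-type fibroblasts. Its level there was 133, 152, and 129 CPM, and 118 of 165 cells held a UMI (71.5%, interval 64.0% to 78.3%, and 13.0% after thinning to 1000 UMIs). The next types were pericyte-like cells at 11.1 ± 4.9 CPM (8 UMIs) and myofibroblast-like cells at 6.57 ± 1.19 CPM, neither of which overlapped with the first. Col14a1-type fibroblasts had 0 UMIs in 71 cells, so Col13a1-type fibroblasts were at least 53.0-fold higher. The difference of Col13a1-type fibroblasts from the other stromal types passed the test (edgeR, adjusted p = 6.66e-18).

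**Figure D4:**
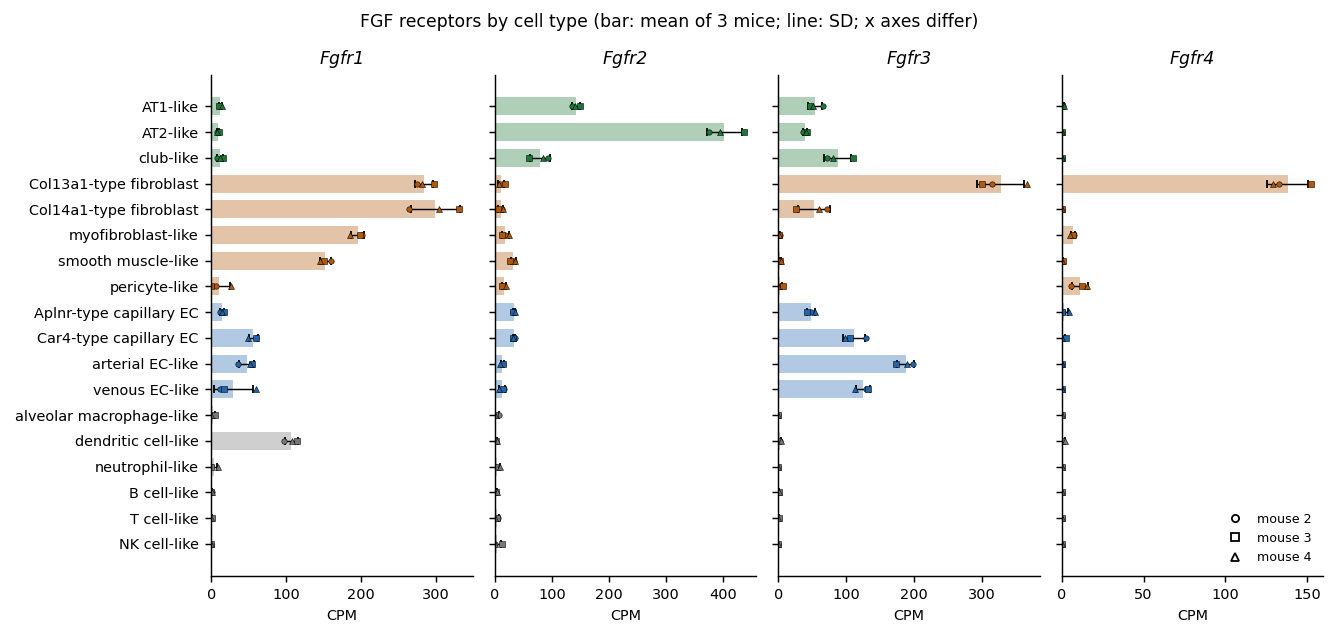
Levels of the 4 receptors by cell type (CPM; bars, mean of 3 mice; lines, SD; points, mice; x axes differ between genes). *Fgfr1* was high in fibroblast types, *Fgfr2* in AT2-like cells, *Fgfr3* in Col13a1-type fibroblasts and ECs, and *Fgfr4* in Col13a1-type fibroblasts.

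The sequences upstream of some of these genes were read from RefSeq on GRCm38.p6, in which 7 of the 9 genes had a window (none for *Fgf1* and *Fgfr1*). Each line shows the 250 bases before the start of the gene, 5′ to 3′, for *Fgf10* of Col13a1-type fibroblasts, *Fgf18* of myofibroblast-like cells, and *Fgf7*, which the 2 types shared. They lie at chr13:118714449-118714698 (plus strand, *Fgf10*), chr11:33147401-33147650 (minus strand, *Fgf18*), and chr2:126034408-126034657 (plus strand, *Fgf7*). Capitals mark a GC box (GGGCGG) or CCAAT box (CCAAT) on either strand.
Fgf10: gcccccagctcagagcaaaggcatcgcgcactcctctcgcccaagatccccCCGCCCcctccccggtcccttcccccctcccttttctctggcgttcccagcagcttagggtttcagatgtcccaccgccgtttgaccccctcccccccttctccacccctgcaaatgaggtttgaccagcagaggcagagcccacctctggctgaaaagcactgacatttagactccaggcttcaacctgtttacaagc
Fgf18: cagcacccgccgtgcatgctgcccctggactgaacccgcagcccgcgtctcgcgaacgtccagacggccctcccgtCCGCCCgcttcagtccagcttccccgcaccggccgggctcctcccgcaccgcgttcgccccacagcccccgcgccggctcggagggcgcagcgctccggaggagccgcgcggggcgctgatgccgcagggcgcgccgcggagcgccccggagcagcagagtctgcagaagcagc
Fgf7: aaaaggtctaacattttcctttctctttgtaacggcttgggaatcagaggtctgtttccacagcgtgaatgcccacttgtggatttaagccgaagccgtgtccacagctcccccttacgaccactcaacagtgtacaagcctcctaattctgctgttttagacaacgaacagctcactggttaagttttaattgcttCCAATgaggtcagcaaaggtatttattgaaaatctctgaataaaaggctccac
*Fgf10* and *Fgf18* held 1 GC box each, and *Fgf7* 1 CCAAT box. The window of *Fgfr4* held 2 GC boxes and is not printed, since 178 of its bases lie in an annotated exon, against 0 in the printed windows. No TATA box (TATAAA, on either strand) was in these 4 windows. Of 32851 windows of the same length, 32.7% held a GC box, 33.8% a CCAAT box, and 12.4% a TATA box. G and C made up 61.2% of the window of *Fgf10*, 64.0% of *Fgfr4*, 77.2% of *Fgf18*, and 43.6% of *Fgf7*. The *Fgf10* window lies inside the GENCODE M21 record, which starts upstream of the RefSeq start. A match of letters is a description and not a binding site.

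Col13a1-type fibroblasts had 7 of the 9 genes called higher than the mean of the other stromal types (4 ligands and 3 receptors) and none lower, beside 15.8% of all genes higher and 9.95% lower. The 7 were *Fgf1*, *Fgf2*, *Fgf7*, *Fgf10*, *Fgfr1*, *Fgfr3*, and *Fgfr4*. The differences were 1.57 ± 0.24 for *Fgf2* and 1.54 ± 0.15 for *Fgfr1* on the log2 scale (edgeR, adjusted p = 1.53e-06 and 4.73e-12). For *Fgf7*, *Fgf10*, *Fgfr3*, and *Fgfr4* a compared type had at most 2 UMIs, and no fitted size is given. The *Fgf1* call (log2 difference 1.34 ± 0.44, adjusted p = 0.0174 by edgeR) was lost in 5 of 14 other settings. The *Fgf1* level of Col13a1-type fibroblasts, 15.8 CPM, was below that of smooth muscle-like cells, 24.9 CPM, with no overlap. In 83 of the 165 cells (50.1% ± 4.5 per mouse) *Fgf10*, *Fgfr3*, and *Fgfr4* were found together, and 75 cells held both *Fgf7* and *Fgf10*. These cells were deep, with a median of 13684 UMIs.

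Col14a1-type fibroblasts were higher in 4 genes (*Fgf2*, *Fgf10*, *Fgfr1*, and *Fgfr3*) and lower in *Fgfr4*, beside 14.2% and 6.87% of all genes (11.9% and 12.1% without TMM). The mean of the other types was taken on the log scale, so types with few UMIs lowered it. A gene called higher was therefore not always at its highest stromal level. *Fgfr3* was at 52.1 CPM in Col14a1-type and at 327 CPM in Col13a1-type fibroblasts. The *Fgfr1* difference was 1.74 ± 0.16 on the log2 scale (edgeR, adjusted p = 3.08e-12). The *Fgfr4* call was lost in 5 of 14 other settings. Without mouse 3, the count for Col14a1-type fibroblasts was 3 genes in place of 5, beside 10.8% and 4.11% of all genes. Myofibroblast-like cells were higher in *Fgf7*, *Fgf18*, and *Fgfr1* and lower in *Fgfr3*, beside 13.9% and 10.3% of all genes (20% and 8.06% without TMM, 12.9% and 15.1% by DESeq2). The *Fgfr1* difference there was 0.71 ± 0.15 (edgeR, adjusted p = 2.64e-04), and it was 0.01 with the stricter cell filter, the only 1 of 14 other settings that lost the call (edgeR, adjusted p = 1.00). The level of *Fgfr1* in myofibroblast-like cells, 195 CPM, was below that in Col14a1-type and Col13a1-type fibroblasts (299 and 284 CPM). Smooth muscle-like cells were higher in *Fgf1* (2.09 ± 0.35, adjusted p = 3.53e-06 by edgeR) and *Fgfr2* (1.27 ± 0.26, adjusted p = 6.52e-05 by edgeR) and lower in *Fgfr3*, beside 17.2% and 13.4%. The *Fgfr2* call was lost with the stricter cell filter and the *Fgfr3* call without mouse 2 (edgeR, adjusted p = 0.147 and 0.0702). The *Fgfr3* level of smooth muscle-like cells, 2.44 CPM, was not below that of myofibroblast-like cells, 1.25 CPM. That call is against a mean that includes Col13a1-type fibroblasts at 327 CPM. The small smooth muscle-like sub-cluster led by *Actc1* lay well above the whole type in *Fgfr2*.

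Among ECs, Aplnr-type capillary cells were higher in *Fgfr2* (log2 difference 0.93 ± 0.24, adjusted p = 0.00556 by edgeR) and lower in *Fgfr1* and *Fgfr3*, beside 8.74% of all genes higher and 3.87% lower (7.15% and 6.01% by DESeq2). The *Fgfr2* call was lost without mouse 4 (0.72, adjusted p = 0.164 by edgeR). Car4-type capillary cells were higher than the mean of the other ECs in *Fgf1*, *Fgf10*, *Fgfr1*, and *Fgfr2*, beside 8.96% of all genes (8.99% were lower). The *Fgf10* call rested on 5 UMIs and was lost in 5 of 14 other settings, and the *Fgfr2* call (0.89 ± 0.33) in 9 of 14, both among them with the mouse as a block (edgeR, adjusted p = 0.0540 and 0.0547). For both genes, some other setting lay farther from the threshold. Without mouse 2 the Car4-type count was 1 gene in place of 4, beside 6.85% of all genes higher and 6.48% lower, and without mouse 3 it was 2, beside 6.8% and 5.96%. Arterial cells were higher in *Fgfr1* as well (0.77 ± 0.25, adjusted p = 0.0297 by edgeR), a call lost in 4 of 14 other settings. Besides *Fgf1*, no gene was called in venous cells, in which 8.24% of all genes were higher and 6.22% lower.

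The AT1-like cells were not all of one kind. Of the 176, 48 (14, 7, and 27 in mice 2, 3, and 4) held AT2 markers at over 2% of their UMIs, with a median of 10.9% against 0.0997% in the other 128. These 48 cells were deeper, with a median of 35054.5 against 4972.5 UMIs, and 3 of them were marked as doublets. Their part in the AT1-like values was therefore measured by leaving them out, a choice made after seeing the data. Without them, *Fgf1* was at 488, 475, and 456 CPM, *Fgf18* at 97.2, 81.0, and 107 CPM, and *Fgfr2* at 57.0, 75.6, and 69.0 CPM. The log2 differences of AT1-like from AT2-like cells became 1.58 for *Fgf1*, 6.39 for *Fgf18*, and -3.14 for *Fgfr2*. The call of *Fgf2* as higher in AT1-like cells (log2 difference 2.72, adjusted p = 0.0239 by edgeR) rested on 5 UMIs of mouse 4, turned to -1.18 without these cells (edgeR, adjusted p = 0.687), and was also reversed without mouse 4.

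**Figure D5:**
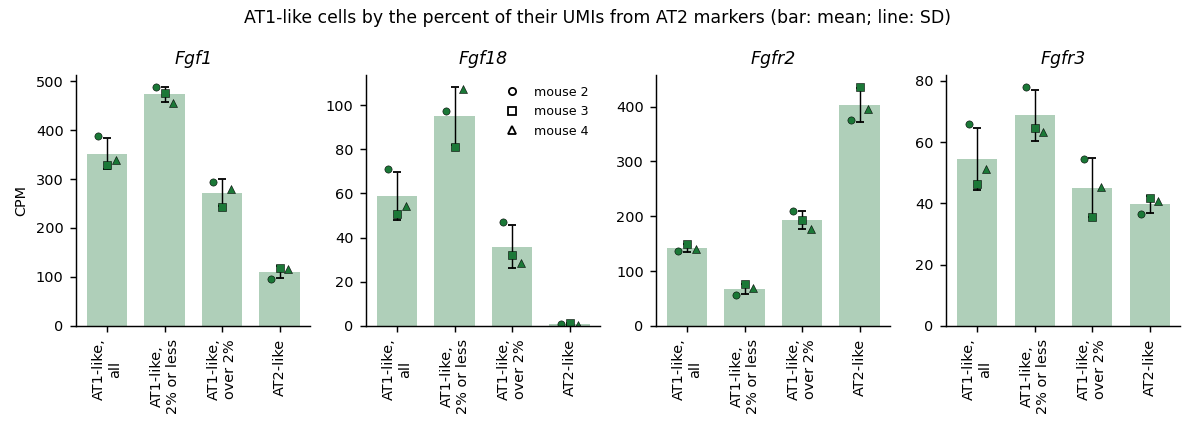
FGF genes in AT1-like cells, together and split at 2% of UMIs from AT2 markers, and in AT2-like cells (CPM, with bars for the mean of 3 mice, lines for the SD, and points for mice). *Fgf1* and *Fgf18* were highest in the AT1-like cells with few AT2 marker UMIs, and *Fgfr2* in AT2-like cells.

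Other genes of the pathway were counted by role. Of 14 feedback inhibitors and targets, 12 could be tested between AT1-like and AT2-like cells, and 0 were higher and 6 lower in AT1-like cells. In this comparison 19.4% of all genes were higher and 17.7% lower, and the counts of each role that follow stand beside these shares. The median log2 difference of the 12 was -0.76, beside -0.01 over all genes tested. *Etv5*, an ETS factor downstream of FGF receptors, was at 159, 168, and 167 CPM in AT1-like and at 536, 582, and 535 CPM in AT2-like cells. In AT1-like cells with at most 2% AT2 markers it was at 4.22, 5.40, and 3.83 CPM (5 UMIs), so most of its AT1-like UMIs lay in the 48 cells. The other values and counts of this paragraph are from all 176 AT1-like cells, the 48 included. *Spred2*, an inhibitor of RAS-MAPK signaling, was at 13.1 ± 1.8 against 45.6 ± 2.3 CPM (log2 difference -2.07, adjusted p = 4.06e-11 by edgeR). Of 13 co-receptors and binding proteins, 6 were higher and 2 lower in AT1-like cells. *Flrt3*, a membrane protein that binds FGF receptors, was at 309 ± 87.5 against 7.51 ± 0.93 CPM (log2 difference 5.13, adjusted p = 2.83e-22 by edgeR), and *Hspg2*, which encodes perlecan, at 620.3 ± 78.8 against 32.1 ± 2.2 CPM. Of 10 enzymes of heparan sulfate, 5 were higher and 1 lower, led by *Ndst1* (3.04) and *Hs2st1* (2.98), and *Sulf2* was lower (-1.21) on the log2 scale. Of 7 adaptors, 2 were higher and 2 lower. The calls of *Spred2*, *Flrt3*, *Hspg2*, *Ndst1*, and *Hs2st1* were kept in all 14 other settings, among them without the cells that held AT2 markers. That of *Sulf2* was lost in 3.

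In myofibroblast-like cells, 5 of 12 feedback inhibitors and targets were higher than in the mean of the other stromal types and 0 lower (median log2 difference 0.40, beside 0.04 over all genes). For this and the other roles, 13.9% of all genes were higher and 10.3% lower. *Etv1* was at 273, 361, and 351 CPM against 31.6 ± 10.7 CPM in smooth muscle-like cells (log2 difference from the stromal mean 2.92, adjusted p = 2.03e-21 by edgeR). Among the myofibroblast-like sub-clusters, it was one of the 10 leading genes only of that led by *Pdgfra* and *Stc1*. The glypicans, heparan sulfate proteins at the membrane, were unevenly placed. *Gpc4* was at 212 ± 5.1 CPM in myofibroblast-like and 4.74 ± 4.27 CPM in Col13a1-type cells, and *Gpc3* at 1.45 ± 1.33 and 618 ± 31.2 CPM. Of 10 heparan sulfate enzymes, 4 were higher and 1 lower, among them the sulfatase gene *Sulf1* at 172 ± 22.5 CPM. Of 13 co-receptors, 3 were higher and 4 lower, and of 7 adaptors, 2 were higher and 1 lower, none by more than 0.44 on the log2 scale. These adaptor calls were lost in 4 (*Sos1*), 3 (*Shc1*), and 10 (*Gab1*) of 14 other settings.

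In Col13a1-type fibroblasts, 4 of 12 feedback inhibitors and targets were higher and 1 lower (median log2 difference 0.04, beside 0.01 over all genes). For this and the other roles, 15.8% of all genes were higher and 9.95% lower. The MAPK phosphatase *Dusp6* was at 61.1 ± 10.8 CPM (log2 difference 1.78, adjusted p = 7.64e-09 by edgeR), whereas *Spry1*, a Sprouty gene, was at 76.2 ± 17.4 CPM against 516 ± 41.3 CPM in myofibroblast-like cells (-0.87 against the stromal mean). Of 10 heparan sulfate enzymes, 3 were higher, led by *Hs2st1* (2.33), and 2 lower, and of 13 co-receptors 2 were higher and 6 lower. Of 7 adaptors, 1 was higher (*Frs2*, 0.65) and 1 lower (*Gab1*, -0.59), calls lost in 2 and 3 of 14 other settings. In Car4-type against Aplnr-type capillary ECs, 4 of 12 feedback genes were higher and 1 lower (*Il17rd*, -0.64), with a median of 0.10 beside -0.09 over all genes, of which 4.53% were higher and 5.8% lower. The *Il17rd* call was lost in 5 of 14 other settings. *Spred2* was at 93.4 ± 16.4 against 23.8 ± 3.8 CPM (log2 difference 1.94, adjusted p = 6.94e-10 by edgeR). Of the 7 adaptors there, 0 passed the test. Pericyte-like cells, in which no FGF receptor was called higher, had 9 of 12 feedback genes higher and 0 lower (median 1.98, beside -0.08 over all genes, of which 13.3% were higher and 12.4% lower). Smooth muscle-like cells had 0 higher and 9 lower (median -1.49, beside 0.00 over all genes, of which 17.2% were higher and 13.4% lower).

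Between stromal and epithelial cells, 6 of 13 feedback genes were higher and 4 lower (median 0.24, beside 0.07 over all genes). Of all genes, 35.9% were higher and 31.3% lower there, so that the counts of feedback genes lie near the background, and those of the roles that follow stand beside the same shares. The ETS genes were split, with *Etv1* at 183 ± 32.6 against 4.84 ± 0.75 CPM and *Etv5* at 21.0 ± 1.6 against 441 ± 33.4 CPM. Of 14 co-receptors, 9 were higher and 4 lower in stromal cells, including *Gpc6* (7.74) and *Sdc1* (-3.88) on the log2 scale. Of 17 other FGF genes, not all of which encode secreted ligands, 4 passed the filter on low counts. Of these, 3 were higher and 0 lower, among them *Fgf9* at 6.52 ± 3.09 against 1.46 ± 0.38 CPM. Of 8 adaptors, 4 were higher and 1 lower, and of 10 heparan sulfate enzymes, 5 were higher and 3 lower.

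Genes among those whose level moved most like each of the 9 over 49 sums of a mouse and type (18 types, at least 20 cells each) are given as a description. These types differ from those of the order: club-like cells had too few cells, and basophil or mast cell-like cells of mouse 3 came in. The sums share libraries and types, and 11622 genes were compared on log2(CPM + 10). For *Fgf1* they were *Tspan15*, *Slc22a23*, and *Lmo7* (Pearson r 0.91, 0.88, and 0.85), for *Fgf2* *Gli2* and *Epha3* (0.97 and 0.96), and for *Fgf7* *Ssc5d*, *Pcolce2*, and *Gata5* (0.97, 0.97, and 0.96). For *Fgf10* they were *Frem1*, *Slc38a5*, and *Serpina3c* (0.94 each), and for *Fgf18* *P4ha3*, *Ddc*, and *Col12a1* (0.94, 0.92, and 0.87). Among receptors, the most similar were *Sh3pxd2b* for *Fgfr1* (0.83), *Kcnj15* for *Fgfr2* (0.89), *Fam198b* for *Fgfr3* (0.86), and *Chst8* for *Fgfr4* (0.95).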

How the data were processed

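Lungs of 3 mice were profiled with the 10x Chromium Single Cell 3′ v3 chemistry, 1 library per mouse. The authors ran Cell Ranger 3.0.2 on every library by itself, and the deposited values are UMI counts of each gene in each cell, not normalized. The submitters' processing notes name mm10, and the annotation release and the use of strand in counting are not given in the sources used here. Positions are from GENCODE M21 on GRCm38 and promoter windows from RefSeq.

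Starting from the deposited counts, cells needed 200 or more genes and no more than 20% mitochondrial UMIs to be used, which left 7642 of 9644 (median 6033.5 UMIs). The series record states 5677 cells, and the filter behind that number was not known. SCTransform from sctransform 0.4.2 was run on the merged libraries in R 4.3.3, and Seurat 5.3.0 clustered them (resolution 0.8, 30 principal components). Each class was clustered again with 20 components. The FGF and pathway genes were kept out of the variable genes. Clusters were named from lists of marker genes when at least 3 markers were detected. The thresholds for naming were set after clusters had been seen, in 3 versions, before FGF levels were examined by type. Doublets were scored with scanpy 1.11.5 and scikit-image 0.26.0 (Python 3.11.15) and kept in the main analysis. They numbered 46, 54, and 19. In libraries where the automatic threshold took under 0.5% of cells, a rate of 0.8% per 1000 cells was used in its place. No library was a copy of another, since a chi-square test of each pair gave 9.12 to 38.1 per degree of freedom.

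UMIs were summed per mouse and class (12 sums, 14212 genes) or per mouse and type with at least 10 cells (54 sums, 11744 genes) and tested with edgeR 4.0.16 (quasi-likelihood test, TMM, filterByExpr, Benjamini-Hochberg adjustment over all genes, threshold 0.05). All 9 genes passed both filters. Stromal and EC types were each set against the unweighted mean of the log levels of the other types of their class. An alternative test was DESeq2 1.42.0. Each animal gave 1 sum to every group, so the mouse number pairs the sums (their deviations from the group means correlated at a median r of 0.14 over 18 pairs for classes and 0.0642 over 459 for types), and a second fit had the mouse as a block. On simulated counts, edgeR and DESeq2 recovered 100% of 200 genes changed 4-fold for stromal against epithelial cells (13644 genes) and for AT1-like against AT2-like cells (9611 genes). The changed genes were drawn from well detected ones, and every other gene had the same mean share in all groups. Calls on few UMIs and the scaling between unlike groups were therefore not tested by these counts. Alternatives changed the cell filter, doublets, clustering, scaling, and mice.

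The 9 genes and all lists were chosen with earlier results of these data known. Of each pathway list, all genes were counted, and the named ones come from the 2 largest changes in each direction and role among those that passed the test. *Etv5* in AT1-like and AT2-like cells was added after its values were seen. Some results are not reported here.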

Additional observations from a re-analysis of the deposited data

How the results depend on the processing

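Over the 6 class comparisons, 42 results were called for the 9 genes, with 39 to 45 when 1 mouse was left out. Over the 11 type comparisons 42 were called, with 34 to 38 when 1 mouse was left out. With the mouse as a block (pairing by animal) the class count was 42 and the type count 40, and no other call of the 9 genes changed beyond the 2 of Car4-type capillary ECs, where the count was 2 in place of 4. Of the 84 called results, 64 kept their direction and their call in every alternative, and 20 did not in at least 1. Of 60 results of pathway genes followed in the same way, 43 kept both and 17 lost the call in at least 1. Only *Fgf2* in AT1-like against AT2-like cells was reversed (main 2.72, and -1.02 to 3.26 with 1 mouse left out), at -0.46 with a clustering resolution of 0.4, -1.02 without mouse 4, and -1.18 without the cells that held AT2 markers, an alternative added after seeing the data. The type with the highest level was the same for 9 of 9 genes in every alternative of the levels. These alternatives changed the cell filter, doublets, cells with AT2 markers, thinning, or mice. All of them kept the cell names of the main clustering, so the effect of other clusterings on these levels was not tested.

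By DESeq2, 7 genes in place of 4 were called for AT1-like against AT2-like cells (beside 19.9% of all genes higher and 17.9% lower), 6 in place of 3 for smooth muscle-like cells (16.7% and 15.5%), and 2 in place of 1 for venous EC-like cells (10.3% and 5.15%). Log-normalization gave 2 for Car4-type capillary ECs against the other ECs (9.07% and 11.1%). A resolution of 1.2 gave 5 for smooth muscle-like cells (19.6% and 11.4%) and 0 for venous EC-like cells (8.18% and 5.82%), for which the stricter cell filter and keeping the FGF genes for clustering also gave 0 (7.28% and 4.65%, 8.69% and 5.27%). With 1 mouse left out, the counts were 1 to 3 for Car4-type capillary ECs (6.51% to 6.85% of all genes higher, 5.29% to 6.48% lower), 3 to 5 for Col14a1-type fibroblasts (10.7% to 11.6%, 4.11% to 4.71%), 3 to 5 for pericyte-like cells (9.64% to 11.2%, 7.77% to 10.1%), and 0 to 2 for venous EC-like cells (5.73% to 6.51%, 3.23% to 3.79%). Where these counts differ, the cause was not tested.

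Scaling by library totals alone moved the median log2 difference of all genes by up to 0.48 in size (epithelial against endothelial cells, -0.48), by 0.37 for stromal against epithelial cells and by 0.25 for AT1-like against AT2-like cells. For epithelial against endothelial cells the genes called higher and lower were 32.6% and 33.7%, and 22% and 53.1% without TMM. Depth and cell number both limit what can be found in a type, and the absence of a UMI in a type does not show that the gene is off there. Tests compare 3 mice of 1 age and condition.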

Other observations

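Small or unnamed groups of cells held FGF genes as well, and their values are given without a test. In 19 chondrocyte-like cells (3, 12, and 4 per mouse), *Fgfr3*, which restrains bone growth, was at 653 ± 432 CPM, with few cells in each mouse. The 136 unnamed dividing cells led by *Top2a* and *Mki67* held *Fgfr2* at 71.3 ± 14.8 CPM. An unnamed stromal sub-cluster of 124 cells led by *Notch3* and *Parm1* held *Fgfr1* at 99.7, 96.3, and 109.9 CPM and *Fgf2* at 22.8 ± 4.6 CPM.

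Among the 17 other FGF genes, *Fgf11* had 438 UMIs in the kept cells, *Fgf9* 153, *Fgf13* 92, *Fgf12* 66, and *Fgf16* 53, and each of the others had at most 7. *Fgf9* was at 9.14, 10.9, and 15.3 CPM in myofibroblast-like cells, and *Fgf12*, which is not secreted, at 15.1 ± 6.3 CPM in Col13a1-type fibroblasts. The 2 sub-clusters of AT1-like cells differed in depth, with medians of 21571 and 1195 UMIs, and held *Fgf1* at 369 ± 37.9 and 305 ± 104 CPM and *Fgf18* at 64.8 ± 10.5 and 18.2 ± 17.6 CPM. The shallower one had 77 cells, so its *Fgf18* value rests on few UMIs.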
